A study of Homo sapiens with 36 samples.

Results

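The segment described here is the 800 kb window chr20:55150000-55950000 of the human genome (build hg19), named for the genes TFAP2C and BMP7. Its members are all regions of the deposited H3K27ac count tables, and all JUNB binding sites, that overlap the window by at least 1 base. This gave 155 members of 434639 in the series, made up of 82 H3K27ac regions of 288084 in 6 tables and 73 JUNB sites of 146555. Every H3K27ac region spanned 1001 bases and every JUNB site 201 bases by their listed ends. Overlapping H3K27ac regions of different tables were joined into 32 loci, each named below by its distance in kb from the start of the window. The window was selected on measured values: it was chosen by the difference between the drug responses of H3K27ac in the sorted populations at the locus that begins 472 kb into it. The drug responses and their differences are therefore given as descriptions with no test. Their counts say only at how many regions all treated libraries lay above, or all below, all control libraries, beside the same share over the whole table. The other comparisons were tested.

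TFAP2C encodes AP-2 gamma, a DNA-binding transcription factor of epithelial and luminal mammary cells, and the AP-2 family is known from breast cancer biology. BMP7 encodes a secreted bone morphogenetic protein, a ligand of the TGF-beta superfamily that signals through type I and type II serine/threonine kinase receptors to SMAD transcription factors. Acetylation of histone H3 at lysine 27 (H3K27ac) marks active promoters and enhancers. JUNB pairs with FOS proteins in AP-1 transcription factors, which act downstream of the MAP kinase cascade. Trametinib inhibits MEK, the kinase that activates ERK in that cascade.

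The cells were SUM-229PE, a triple-negative breast cancer line from a pleural effusion, sorted on the surface proteins EpCAM and CD49f into cells positive for both (POS) and cells negative for both (NEG). H3K27ac was measured by chromatin immunoprecipitation and sequencing in 22 libraries and JUNB in 4, and 10 input libraries were not used here. Untreated cells received the vehicle DMSO (POS 3 and NEG 2 H3K27ac libraries, and 2 JUNB libraries of each). Acute cells received 30 nM trametinib for 24 hours (POS 3, NEG 2), and chronic cells were taken at day 0 and at day 14 of 10 nM trametinib (2 libraries of each population and day). Another set, POSR1 and POSR2 (2 libraries each), belongs to a subpopulation that the labels call POSR without giving a treatment or saying how it arose. All groups share the parental line, and no label states that replicates were grown separately. The p-values thus cover only the spread between these libraries, which may be technical. At day 14 the drug and the time in culture cannot be told apart.

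Total counts over regions ran from 1861227 to 9212006 per H3K27ac library and from 4884516 to 8947351 per JUNB library, with the lowest totals in the chronic NEG table. Levels are counts per 1000000 (CPM) of the counts in regions, after scaling by trimmed mean of M values, and every difference is relative to all regions of the same table. Each table was scaled on its own, so levels in different tables are only set side by side. Annotation of the hg19 build was not used here, so no region is assigned to a gene, a promoter or an intron, and the sorting markers could not be checked at their genes. In the RefSeq gene table of another build (GRCh38.p14), TFAP2C and BMP7 are neighbours among protein-coding genes, with 0 protein-coding genes and 7 other listed genes (3 lncRNAs and 4 pseudogenes) between them. SPO11 and RAE1 follow BMP7 there.

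The 32 loci were unevenly shared among the tables. There were 14 regions in untreated POS and NEG cells, 15 in POSR and POS, 12 and 8 in the acute treatment of POS and of NEG, and 24 and 9 in their chronic treatment. The loci at 213, 472 and 786 kb were present in all 6 tables, and 10 loci appeared in the chronic POS table alone. A total of 23 loci appeared in a POS or POSR table and in neither NEG treatment table, 3 appeared in a NEG treatment table and in no POS or POSR table, and 6 in both kinds. A region enters a table when it was called in the libraries compared there, so presence follows where the signal is high. JUNB sites fell in 22 of the 32 loci. Over the 4 parts of 200 kb, from the start of the window to its end, there were 5, 7, 11 and 9 loci and 17, 15, 27 and 14 JUNB sites.

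In untreated cells, the POS and NEG populations differed in H3K27ac at most of the regions called in the segment. Loci at 31, 190, 233 and 604 kb carried more H3K27ac in POS, while all 5 regions called in the third part carried less. A region with little signal in 1 population could enter this table only through the other. The counts by direction thus support no pattern along the segment by themselves. The locus at 410 kb in the third part, called in both POS treatment tables, has no region here. By the quasi-likelihood test of edgeR, adjusted over all regions of the table by the Benjamini-Hochberg method, 4 of the 14 regions were higher in POS, 8 were lower and 2 did not pass an adjusted p of 0.05. Of all regions tested, 76.5% were called, 38.6% higher and 38.0% lower. The median log2 difference, POS minus NEG, was -1.02 in the segment and -0.04 over all regions tested. POS and NEG libraries did not overlap at 13 of the 14 regions, beside 84.1% of all regions tested. In the third part, 0 regions were higher in POS by edgeR, 0 at an unadjusted p under 0.05 and 0 by DESeq2. Scaling by total counts moved the median of all regions to -0.19.

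The widest gap was at 456 kb (chr20:55605664-55606665). The 3 POS libraries read 1.27, 3.97 and 2.86 CPM and the 2 NEG libraries 117 and 124 CPM. The log2 difference, POS minus NEG, was -5.57 ± 0.26 (SE), with an edgeR adjusted p of 2.22e-20. All NEG libraries stood far above all POS libraries, a fitted 47.4-fold difference. Beside it, the locus at 465 kb (chr20:55615460-55616461) read 1.65, 2.71 and 2.07 CPM in POS and 53.4 CPM in both NEG libraries, a log2 difference of -4.68 ± 0.21 (edgeR adjusted p 1.45e-20). At 501 kb (chr20:55650938-55651939), POS read 1.90, 2.92 and 1.75 CPM and NEG 37.2 and 35.5 CPM, a log2 difference of -4.09 ± 0.21 (edgeR adjusted p 3.00e-19). These 3 loci were near the bottom of the measured range in POS and among the strong loci of NEG. They could thus enter this table only through the NEG libraries, which set the sign of their differences in advance. Their p-values are no independent support for that sign.

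The locus at 472 kb (chr20:55622143-55623144) was acetylated in both populations, at 18.0, 15.7 and 16.4 CPM in POS and at 55.0 and 60.5 CPM in NEG. Its log2 difference was -1.78 ± 0.17 (edgeR adjusted p 7.25e-12), without overlap of the libraries. The DMSO libraries of this comparison also enter the acute responses through which the locus was noticed, so its untreated level is not independent of them. The locus at 203 kb (chr20:55353278-55354279) read 8.10, 12.1 and 9.23 CPM in POS and 41.4 and 43.6 CPM in NEG, a log2 difference of -2.15 ± 0.18 (edgeR adjusted p 8.22e-14). At 213 kb (chr20:55362624-55363625), the strongest locus of the second part, both populations were high, with 53.2 ± 9.07 CPM (SD, n = 3) in POS and 96.2 ± 4.17 CPM (SD, n = 2) in NEG. The log2 difference there was -0.85 ± 0.19 (edgeR adjusted p 0.000192). The loci at 412 and 786 kb were also lower in POS, by log2 values of -1.69 and -1.19.

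The reverse held for 2 loci of the first part, and the one at 31 kb could enter the table only through POS. At 31 kb (chr20:55181042-55182043), POS libraries read 33.8, 28.4 and 33.6 CPM and NEG libraries 1.78 and 3.90 CPM, a log2 difference of 3.49 ± 0.24 (edgeR adjusted p 1.18e-15). At 190 kb (chr20:55340128-55341129), the strongest locus of the first part, POS read 81.2, 58.2 and 62.8 CPM and NEG 7.65 and 10.1 CPM, a log2 difference of 2.93 ± 0.23 (edgeR adjusted p 2.98e-14). The weaker loci at 233 and 604 kb were higher in POS by 2.08 ± 0.25 and 1.89 ± 0.48 on the log2 scale. The locus at 114 kb differed by 0.76 ± 0.40 and did not pass the test (edgeR adjusted p 0.0770), and that at 205 kb differed by -0.01 ± 0.26.

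**Figure D1:**
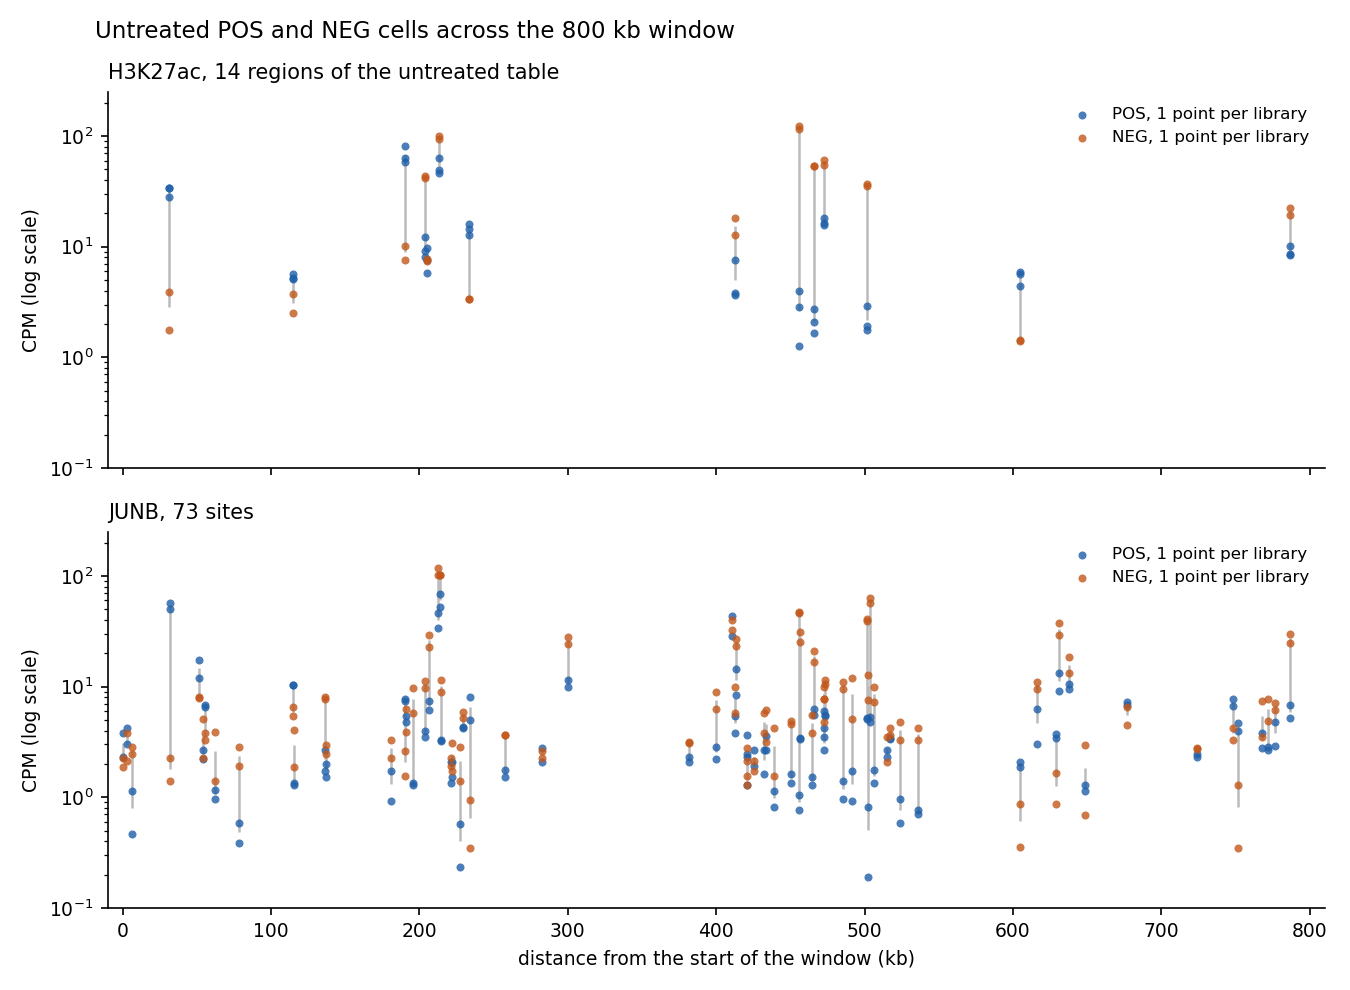
Untreated levels along the segment, with distance from the window start in kb on the x axis and CPM on a log y axis, for 14 H3K27ac regions and 73 JUNB sites. Points are single POS and NEG libraries and grey lines join the group means; POS points lie above NEG at 31 and 190 kb and far below them at 456, 465 and 501 kb.

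Summed over the regions of each part, the untreated signal of POS was largest in the first part, at 105 ± 14.2 CPM (SD, n = 3) against 14.8 ± 4.11 CPM (SD, n = 2) in NEG. NEG held 283 ± 11.8 CPM in the third part, where POS held 28.7 ± 3.52 CPM. The second part held 85.2 ± 4.38 CPM in POS and 149.7 ± 5.94 CPM in NEG, and the fourth held 14.4 ± 0.226 and 22.2 ± 2.21 CPM. Over the whole segment, total-count scaled CPM came to 223 ± 6.61 in POS (SD, n = 3) and 501 ± 19.7 in NEG (SD, n = 2). The NEG sum was 2.25 times that of POS, and 3 against 2 libraries allow no two-sided exact permutation p below 0.2, the value obtained. These sums depend on which regions were called.

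JUNB occupancy in the same untreated cells was also lower in POS over most of the segment. Of the 73 sites, 70 passed the count filter, and 10 were higher in POS, 41 lower and 19 not called by the same edgeR test, adjusted over all sites. The shares over all sites tested were 57.9% called, 28.5% higher and 29.4% lower. The median log2 difference was -0.90 in the segment and -0.02 over all sites. A site with little signal in 1 population could likewise enter only through the other. These counts by direction thus support no pattern by themselves. In the third part 20 of 27 sites were lower in POS and 0 were higher by edgeR, with 0 higher at an unadjusted p under 0.05 and 0 by DESeq2. In the first part 5 sites were higher and 6 lower of 16 tested. With DESeq2, 5 sites were higher and 27 lower over the segment, and without POS JUNB replicate 1 edgeR called 4 higher.

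The strongest JUNB site with more signal in POS lay at 32 kb (chr20:55181701-55181902), inside the H3K27ac locus at 31 kb. It read 56.9 and 50.6 CPM in POS and 2.24 and 1.39 CPM in NEG, a log2 difference of 4.82 ± 0.31 (edgeR adjusted p 3.02e-51). The site at 234 kb (chr20:55383821-55384022) read 5.00 and 8.01 CPM in POS and 0.942 and 0.349 CPM in NEG, a log2 difference of 3.15 ± 0.46. Both sites sat in H3K27ac regions that were themselves higher in POS. Smaller differences were found at 55 kb (chr20:55205097-55205298), at 0.90 ± 0.33 (edgeR adjusted p 0.0123), and at 748 kb (chr20:55898105-55898306), at 0.93 ± 0.32 (edgeR adjusted p 0.00807). Neither of these calls held with DESeq2 (adjusted p 0.118 and 0.0992) or in edgeR without POS JUNB replicate 1 (0.0907 and 0.109), and that at 748 kb did not hold without NEG JUNB replicate 2 (0.0551).

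The JUNB site at 456 kb (chr20:55605756-55605957) lay in the H3K27ac region with the widest gap. POS read 1.05 and 0.763 CPM and NEG 46.4 and 47.4 CPM, a log2 difference of -5.62 ± 0.35 (edgeR adjusted p 7.36e-55). The site at 503 kb (chr20:55653289-55653490), outside any H3K27ac locus, read 5.35 and 4.77 CPM in POS and 63.3 and 57.0 CPM in NEG, a log2 difference of -3.56 ± 0.27. The site at 502 kb (chr20:55652095-55652296) was lower by -4.12 ± 0.43, and the highest site of the fourth part, at 631 kb (chr20:55780769-55780970), by -1.54 ± 0.24. The highest site of the whole segment, at 213 kb (chr20:55363467-55363668), read 68.8 and 52.3 CPM in POS and 102 and 103 CPM in NEG, a log2 difference of -0.75 ± 0.23 (edgeR adjusted p 0.00225). The highest site of the third part, at 410 kb (chr20:55560418-55560619), had overlapping libraries, with 43.6 and 28.6 CPM in POS and 39.7 and 32.4 CPM in NEG. Its log2 difference was 0.01 ± 0.23 (edgeR adjusted p 0.970).

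Where the marks lay together, the called differences had the same sign, as in nearly all of the table. Of the 14 untreated H3K27ac regions, 13 held a tested JUNB site, and for the strongest site in each, 11 pairs were called for both marks. All 11 had the same direction, 3 higher and 8 lower in POS. These are edgeR calls. In the authors' deposited DESeq2 values the paired JUNB sites at 472 and 604 kb did not pass (DESeq2 adjusted p 0.245 and 0.197). Over all untreated regions with a tested site, 59.4% were called for both marks, and 96.5% of those had the same direction. Pearson's r between the log2 differences was 0.884 across the 13 regions, a description over regions that share libraries within each mark and are not independent. The sizes were not equal at every locus. At 465 kb H3K27ac differed by -4.68 and the JUNB site by -1.65. At 472 kb H3K27ac differed by -1.78 and the JUNB sites inside that region by -0.95 and -0.72. A further site, in the locus but outside the untreated region, differed by -0.996. None of the 3 passed in the authors' deposited values (DESeq2 adjusted p 0.199, 0.245 and 0.0751). At 190 kb H3K27ac was higher in POS by 2.93, while of its 2 JUNB sites the stronger differed by 0.06 and was not called, and the weaker (chr20:55340358-55340559) was higher by 1.81 ± 0.35.

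After 24 hours of trametinib, POS cells had more H3K27ac at some loci of the segment and less at others. Of 12 regions, 3 had all treated libraries above all DMSO libraries, beside 29.2% over the whole table, 4 had them all below, beside 27.8%, and 5 had overlapping libraries. The median log2 response of the 12 was -0.25. At 190 kb the 3 DMSO libraries read 80.4, 56.7 and 61.5 CPM and the 3 trametinib libraries 18.1, 17.3 and 17.7 CPM, a log2 response of -1.91 ± 0.16. At 213 kb the values were 63.3, 46.1 and 49.4 CPM in DMSO and 23.7, 21.7 and 22.4 CPM in trametinib, a response of -1.23 ± 0.15. The loci that were strongest in untreated POS cells in the first and second parts were thus well below their DMSO levels in every treated library. The locus at 233 kb responded by -1.02 ± 0.17, while the POS-high locus at 31 kb stood at -0.02 ± 0.14, with overlapping libraries.

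At 472 kb (chr20:55622122-55623123) the POS response had the opposite sign. DMSO libraries read 17.6, 15.2 and 15.9 CPM and trametinib libraries 32.5, 29.7 and 38.1 CPM, a log2 response of 1.04 ± 0.14. The lowest treated library was above the highest DMSO library. The weak locus at the start of the window (chr20:55149712-55150713) went from 2.38, 2.44 and 3.43 CPM to 7.92, 8.54 and 10.1 CPM, a response of 1.69 ± 0.25, and that at 410 kb responded by 0.68 ± 0.18.

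NEG cells under the same acute treatment had less H3K27ac at nearly all of their loci in the segment. Of 8 regions, 7 had all treated libraries below all DMSO libraries, beside 31.8% over the table, none had them all above, beside 33.2%, and the libraries overlapped at 1. The median log2 response was -1.30. At 456 kb the DMSO libraries read 130.3 and 139 CPM and the trametinib libraries 28.5 and 28.4 CPM, a response of -2.24 ± 0.11. At 465 kb the values were 59.6 and 59.96 CPM, then 19.8 and 18.9 CPM, a response of -1.62 ± 0.13. At 472 kb they were 61.4 and 67.9 CPM, then 17.8 and 25.3 CPM, a response of -1.59 ± 0.13. The acutely treated NEG libraries at 472 kb thus stood below the acutely treated POS libraries, with the 2 populations scaled in separate tables. The locus at 213 kb responded by -1.50 ± 0.11 in NEG and by -1.23 ± 0.15 in POS. The smallest NEG responses were -0.30 ± 0.13 at 501 kb and 0.02 ± 0.15 at 786 kb, the latter with overlapping libraries.

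At day 14 the POS population had H3K27ac at many loci where it had little at day 0. Of 24 regions, 18 had both day 14 libraries above both day 0 libraries, beside 44.7% over the table, and 6 had them below, beside 43.6%. The median log2 response was 2.19 in the segment and 0.03 over all regions. The 18 regions above had a median of 2.94 CPM at day 0 (range 1.67 to 27.7) and 22.8 CPM at day 14 (range 6.93 to 90.6). The 6 regions below had a median of 24.7 CPM at day 0 and 13.4 CPM at day 14. A region with little signal at day 0 could enter this table only through its day 14 libraries, so the number of such regions supports no gain by itself. Among the 18, 11 held a JUNB site of the untreated cells, and among the 6 below, 5 did. The share over all regions was not computed. Day 14 libraries lay above at all 7 regions of the third part and at 7 of 8 in the fourth part, and below at all 3 of the first part.

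The largest day 14 response in POS was at 465 kb (chr20:55615919-55616920). Day 0 libraries read 1.25 and 2.09 CPM and day 14 libraries 46.1 and 46.3 CPM, a log2 response of 4.86 ± 0.25. That locus was among the NEG-high loci of untreated cells, where its region shared only 542 bases with this one. At 731 kb (chr20:55881163-55882164), found in no other table, the values were 1.61 and 2.09 CPM, then 38.9 and 39.98 CPM, a response of 4.44 ± 0.25. At 751 kb (chr20:55901037-55902038) they were 4.46 and 2.99 CPM, then 54.5 and 49.4 CPM, a response of 3.73 ± 0.20. The locus at 472 kb (chr20:55622591-55623592) read 26.1 and 29.3 CPM at day 0 and 89.0 and 92.3 CPM at day 14, a response of 1.72 ± 0.14, and was the highest locus of the segment in day 14 POS cells. The locus at 501 kb responded by 2.41 ± 0.35.

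The loci that were strongest in POS at day 0 were lower at day 14. At 190 kb (chr20:55340137-55341138) day 0 libraries read 92.4 and 77.5 CPM and day 14 libraries 16.8 and 16.3 CPM, a log2 response of -2.37 ± 0.15. At 213 kb (chr20:55363396-55364397) the values were 53.9 and 42.5 CPM, then 24.6 and 20.2 CPM, a response of -1.13 ± 0.15. The POS-high locus at 31 kb responded by -0.73 ± 0.15 (34.4 and 29.0 CPM, then 21.4 and 17.4 CPM). Loci at 187 and 203 kb responded by -0.84 ± 0.21 and -0.50 ± 0.22. The locus at 233 kb, lower after acute treatment, was higher at day 14 by 1.124 ± 0.16.

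In NEG cells, both day 14 libraries lay below both day 0 libraries at 8 of 9 regions and above them at 1, beside 36.5% of all regions in either direction. The median log2 response was -1.42. At 456 kb (chr20:55605669-55606670) day 0 libraries read 162 and 160.2 CPM and day 14 libraries 47.9 and 53.8 CPM, a log2 response of -1.66 ± 0.12. At 472 kb (chr20:55622121-55623122) the values were 99.9 and 96.6 CPM, then 37.9 and 23.1 CPM, a response of -1.70 ± 0.15. At 465 kb (chr20:55615252-55616253) they were 79.7 and 60.4 CPM, then 24.2 and 24.0 CPM, a response of -1.56 ± 0.16. At these 3 loci of the third part, each day 14 library was far below each day 0 library. The locus at 213 kb responded by -1.52 ± 0.13, and the 1 region above, at 786 kb, by 0.49 ± 0.16.

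**Figure D2:**
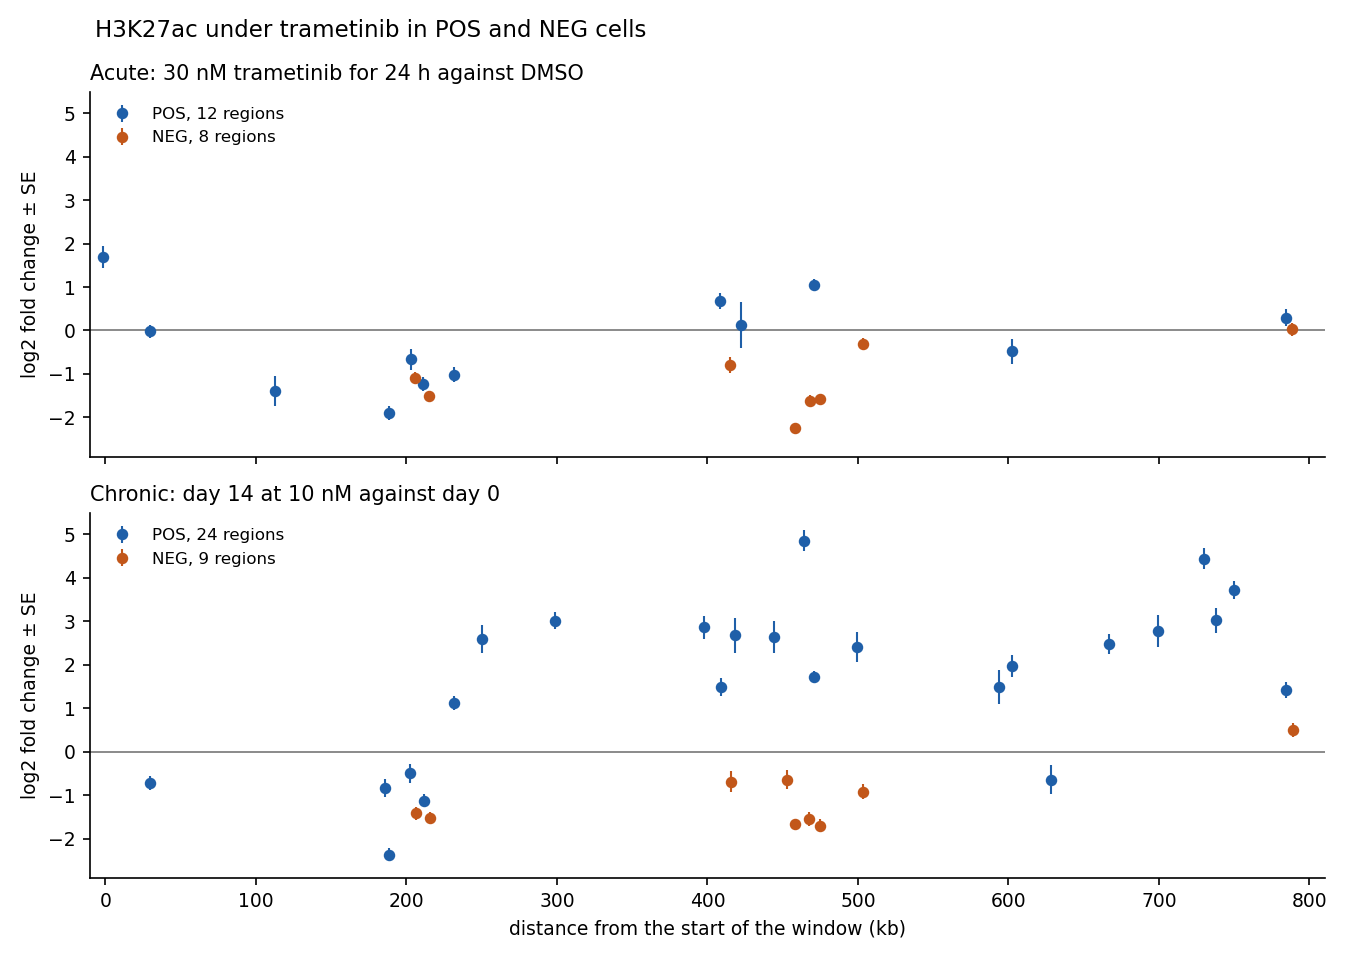
Log2 responses of H3K27ac to trametinib along the segment after 24 hours at 30 nM (POS 12 and NEG 8 regions) and at day 14 of 10 nM (POS 24 and NEG 9 regions), with bars of 1 SE and distance from the window start in kb on the x axis. At 472 kb the POS values (1.04 and 1.72) lie above 0 and the NEG values (-1.59 and -1.70) below it.

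Side by side, the populations' totals, each over the regions of its own table, moved in opposite directions at day 14. The POS total covers 24 regions and the NEG total 9. Regions with little signal at day 0 entered the POS table only through its day 14 libraries. The higher POS total at day 14 thus supports no gain by itself. POS went from 310.1 ± 10.7 to 577 ± 1.90 CPM, scaled by total counts (SD, n = 2 each) and NEG from 649.8 ± 9.63 to 281 ± 20.1. After acute treatment both were lower, POS from 218 ± 2.48 to 154 ± 1.85 (SD, n = 3 each) and NEG from 485 ± 16.5 to 200.4 ± 6.28 (SD, n = 2 each). In POS cells the first part held 134 ± 11.4 CPM at day 0 and 45.6 ± 2.10 CPM at day 14. The third part held 46.4 ± 6.77 and then 201 ± 9.45 CPM, and the fourth 37.1 ± 4.58 and then 198 ± 5.34 CPM. The first part thus held the largest sum in POS at day 0, and the third and the fourth part, whose sums overlapped, the largest at day 14.

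**Figure D3:**
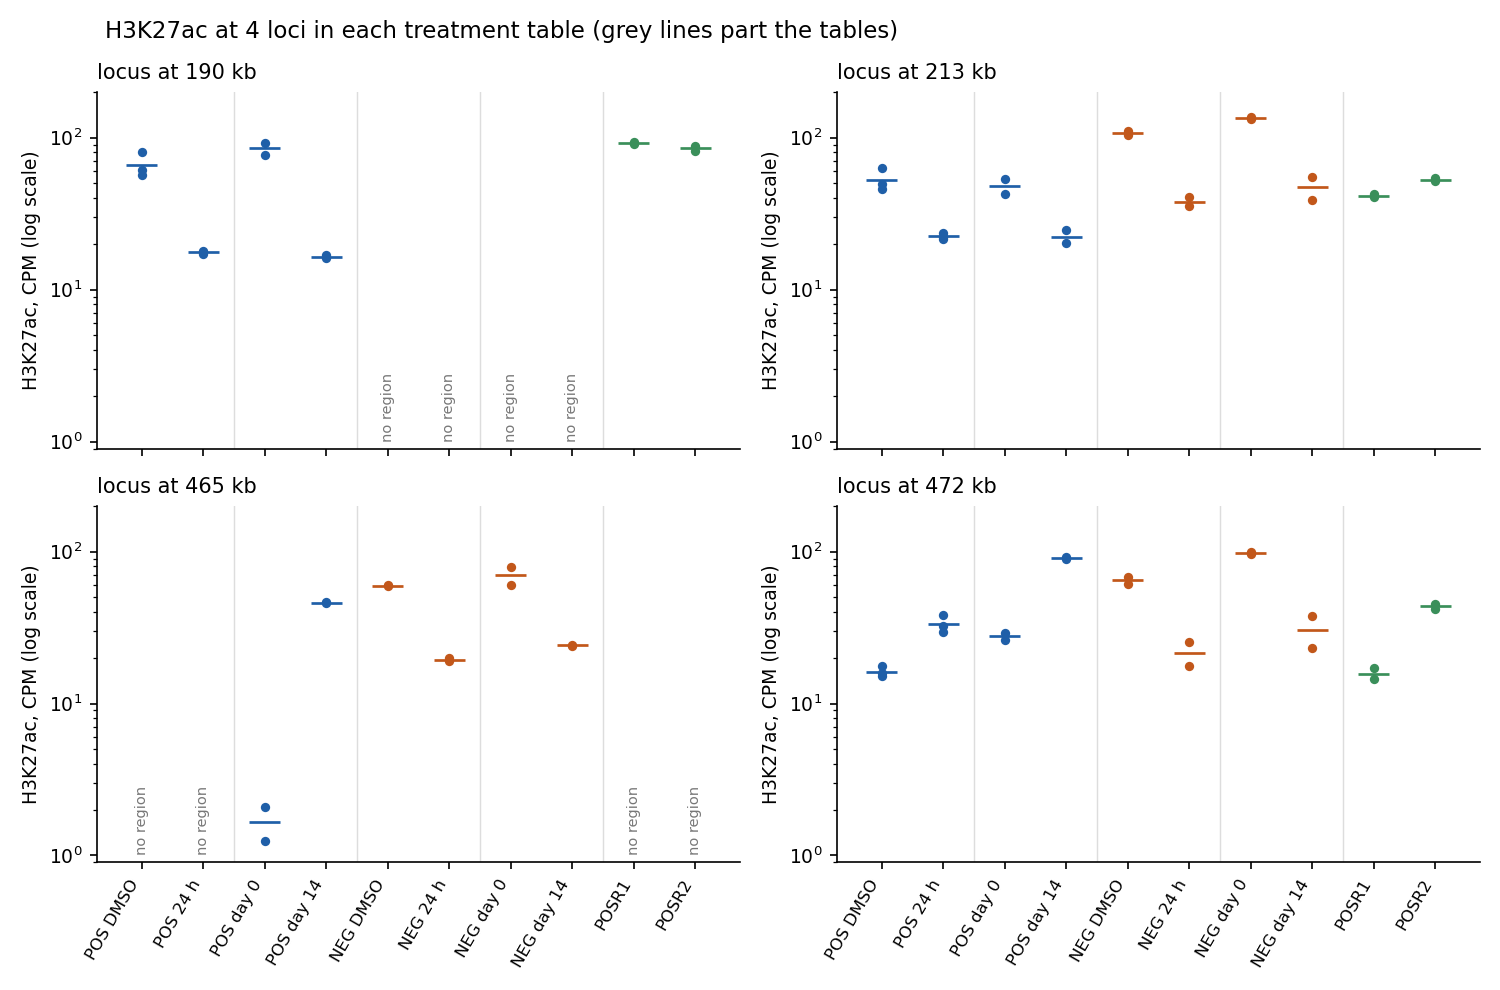
H3K27ac of each library in 10 groups at the loci 190, 213, 465 and 472 kb from the window start, in CPM on a log y axis; "no region" marks tables that hold none at that locus. The 472 kb locus is higher with trametinib in POS (up to 92.3 CPM) and lower in NEG (down to 17.8 CPM), while the 213 kb locus is lower with trametinib in both.

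The response difference, NEG minus POS, was read from a joint fit of both populations at regions matched by at least 50% of their length. It was available at 3 loci after acute treatment and at 5 at day 14, and is given without a test. At 472 kb the acute POS response was 1.17 and the NEG response -1.53 in this fit, a difference of -2.69 ± 0.19. The locus at 213 kb had a difference of -0.33 ± 0.18 and that at 786 kb -0.34 ± 0.24. The day 14 differences were -3.95 ± 0.19 at 472 kb, -3.85 ± 0.34 at 501 kb, -1.45 ± 0.26 at 203 kb, -1.44 ± 0.25 at 786 kb and -0.91 ± 0.19 at 213 kb.

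At 213 kb both populations were lower in the treated libraries and the difference was of size, while at 472 and 501 kb the signs were opposite. The joint fit set POS day 14 responses 0.506 to 0.512 higher than the POS table's own fit, so the separate fits gave smaller differences, -3.43 at 472 kb, -3.33 at 501 kb, -0.93 at 203 kb, -0.92 at 786 kb and -0.40 at 213 kb. The matched day 14 regions at 472 kb shared 531 bases (53.0%), so the populations were read over partly different sequence there. At 465 kb the day 14 regions shared only 334 bases and no difference was computed. The separate responses there were 4.86 in POS and -1.56 in NEG.

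POSR cells were called different from untreated POS cells at few loci of the segment. By the edgeR test, adjusted over the table, 3 of 15 regions (20%) were higher, 0 lower (1 at an unadjusted p under 0.05, 0 by DESeq2) and 12 not called, beside 36.1% called over the table (17.5% higher, 18.5% lower). The share called higher was thus near that of all regions. At 31 kb POS libraries read 32.2, 26.7 and 31.9 CPM, POSR1 41.0 and 36.9 CPM and POSR2 60.3 and 58.8 CPM, a log2 difference of 0.70 ± 0.20 (edgeR adjusted p 0.0221). At 190 kb POS read 77.2, 54.8 and 59.8 CPM, POSR1 90.5 and 94.3 CPM and POSR2 88.4 and 82.2 CPM, a log2 difference of 0.47 ± 0.15 (edgeR adjusted p 0.0337). At 501 kb (chr20:55651390-55652391) POS read 2.05, 2.16 and 2.42 CPM, POSR1 2.95 and 2.98 CPM and POSR2 7.18 and 6.83 CPM, a log2 difference of 1.17 ± 0.41 (edgeR adjusted p 0.0462). At each of these loci all 4 POSR libraries were above all 3 POS libraries, as at 21.2% of all regions. The POS libraries are the DMSO libraries of the untreated and acute comparisons. With little signal in POS, the region at 501 kb could enter this table only through POSR. The count of higher regions was 1 without POS replicate 1, 0 without POS replicate 2 and 0 without POS replicate 3, and 1 region was lower without POSR2 replicate 1. With the replicate number as a block none of the 3 passed (edgeR adjusted p 0.114 at 31 kb, 0.199 at 190 kb and 0.177 at 501 kb). The call at 501 kb was also lost with total counts (edgeR adjusted p 0.0714) and without POSR2 replicate 1 (0.104) or 2 (0.0972). That at 190 kb was lost without POSR1 replicate 1 (edgeR adjusted p 0.0686) or 2 (0.0731).

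POSR1 and POSR2 differed from each other over much of the segment, and POSR2 was the higher wherever a difference was called. By the same test 10 of 15 regions were higher in POSR2, 0 lower (0 at an unadjusted p under 0.05, 0 by DESeq2) and 5 not called, beside 40.5% called over the table (21.2% higher, 19.3% lower). The median log2 difference, POSR2 minus POSR1, was 0.96 in the segment and 0.00 over all regions. A region with little signal in POS and POSR1 could enter this table only through POSR2, as at the window start and at 501 kb. The count of higher regions thus supports no gain by itself, and p-values at such loci are no independent support for their sign. At the window start (chr20:55149545-55150546) POSR1 read 2.39 and 3.34 CPM and POSR2 15.4 and 15.8 CPM, a log2 difference of 2.42 ± 0.25 (edgeR adjusted p 1.06e-20). At 472 kb (chr20:55622344-55623345) POSR1 read 17.0 and 14.4 CPM and POSR2 45.3 and 42.0 CPM, a difference of 1.48 ± 0.16 (edgeR adjusted p 1.60e-18). POS libraries at that locus, at 18.7, 15.1 and 18.2 CPM, lay close to POSR1. At 114 kb (chr20:55264355-55265356) POSR1 read 4.21 and 3.46 CPM and POSR2 9.93 and 11.6 CPM, a difference of 1.49 ± 0.25 (edgeR adjusted p 4.66e-08). The 5 regions not called were at 190, 205, 213, 668 and 786 kb. Among the calls, the one at 604 kb did not hold with DESeq2 (adjusted p 0.132), with total counts (0.0602), with the replicate block (0.0807) or in 4 of 7 edgeR fits that left out 1 library, whose adjusted p there reached 0.366. Those at 31 and 748 kb did not hold without POSR1 replicate 2 (0.0833) and without POSR2 replicate 1 (0.129), respectively. The locus at 213 kb passed with total counts (edgeR adjusted p 0.00238) and without POS replicate 1 (0.0209) or POS replicate 2 (0.0153).

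Because of that gap, POSR1 and POSR2 were also set against POS one at a time, a choice made after the data were seen. POSR1 alone had 1 region higher and 5 lower (26.5% and 29.4% over the table). POSR2 alone had 9 higher and 6 not called (28.2% higher and 29.2% lower over the table). The same limit holds for regions that entered only through POSR2. At 472 kb POSR1 differed from POS by -0.16 ± 0.16 and POSR2 by 1.32 ± 0.14 on the log2 scale, while the pooled difference of 0.77 ± 0.39 did not pass the test (edgeR adjusted p 0.147). The locus at 190 kb was higher in both, by 0.52 ± 0.18 and 0.41 ± 0.18. POSR1 was lower than POS at 205, 300, 604, 748 and 751 kb. Segment totals were 232 ± 0.446 CPM, scaled by total counts, in POS (SD, n = 3), 227 ± 11.3 in POSR1 and 339.9 ± 15.2 in POSR2 (SD, n = 2 each). The pooled POSR total of 284 ± 65.9 (SD, n = 4) spans these unlike sets. Its two-sided exact permutation test against POS cannot go below 0.0571, and gave p values of 0.4 on this scale and 0.171 on totals scaled by trimmed mean of M values.

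**Figure D4:**
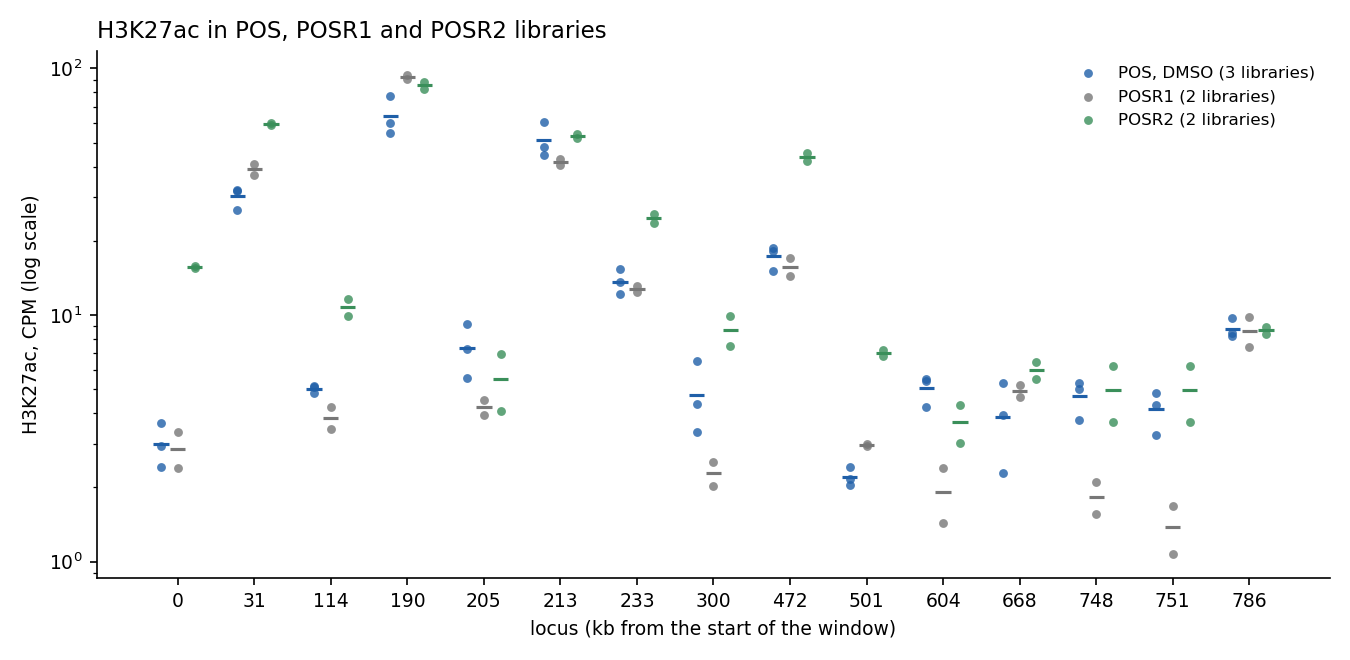
H3K27ac of each library at the 15 loci of the POSR table, in CPM on a log y axis against distance from the window start in kb, for POS (3 libraries), POSR1 (2) and POSR2 (2), with dashes at the group means. POSR2 lies above POSR1 and POS at 472 kb (45.3 and 42.0 CPM) and at the window start (15.4 and 15.8 CPM).

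Of the 11 loci present in both the chronic POS and the POSR tables, 6 had day 14 libraries above day 0 in POS and were called higher in POSR2 than in POSR1, at 233, 300, 472, 501, 604 and 751 kb, with the call at 604 kb lost as given above. A further 2 lay above at day 14 and were not called between the POSR sets, 2 lay below and were not called, and the locus at 31 kb lay below at day 14 and was higher in POSR2. In the segment, 18 of 24 regions lay above at day 14 and 10 of 15 were higher in POSR2. The share of such pairs over all regions was not computed. These counts set tables with different libraries beside each other, so they show no likeness by themselves, and none was tested. At 190 kb the day 14 response in POS was -2.37 and the POSR2 minus POSR1 difference was -0.11 ± 0.19, not called.

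In the authors' deposited table for each comparison, the segment's calls at an adjusted p under 0.05 were 4 higher and 8 lower of 14 for untreated POS against NEG, and 4 higher and 0 lower of 15 for POSR. For JUNB the authors' deposited table gave 4 higher and 24 lower of 73 sites. Every member called there had the same sign in the values above, and the largest gap between an authors' deposited log2 value and the present one was 0.325. Of the 4 POSR regions called higher there, 3 were called here, and the other was the window start.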

How the data were processed

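Chromatin immunoprecipitation libraries of sorted SUM-229PE cells were analysed from the deposited count tables. Per the submitters' processing notes, tools named include cutadapt 1.12, STAR 2.5.2b, featureCounts, MACS2 and DESeq2, with the build hg19; no settings are recorded there. Per the file headers, the authors deposited raw read counts per region and library, with region positions taken as listed (whether starts are 0-based or 1-based is not recorded). The authors' deposited DESeq2 tables give a mean of normalized counts (signal), a log2 fold change with its error, a test statistic (score) and p-values. The mean signal and the score were not used further. Treated count columns of the acute tables carry the code GSK where the labels say trametinib. They were mapped through the table names in the sample descriptions. No spike-in is described.

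Counts were fitted per table with edgeR 4.0.16 (limma 3.58.1, R 4.3.3), with trimmed mean of M values scaling, a minimum count of 10, the quasi-likelihood test and Benjamini-Hochberg adjustment over all regions of the table. Calls use an adjusted p under 0.05 and are not given for drug responses or response differences, whose values chose the segment; 10 comparisons were fitted. POSR2 against POSR1 was fitted with POS in the same model. Response differences came from joint fits of both populations on regions overlapping by 50% of their length (GenomicRanges 1.54.1). The fits were tested on simulated counts. DESeq2 1.42.0, other scalings, no filter, the replicate block and leaving out single libraries were alternatives.

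Loci given in full were the one holding the regions noticed earlier, the highest of each part, and the 3 largest called differences in each direction among members at or above the median level with groups that do not overlap. For drug responses they were the 3 largest in each direction, without a test. Any further member named was picked with its values in view. The members and lists were chosen with earlier results of these data known. Checks of the sorting markers and of BMP and AP-2 pathway genes needed hg19 annotation and were not run. No promoter sequence is printed, and input libraries were not analysed here.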

Additional observations from a re-analysis of the deposited data

Results flagged for a closer look

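At 2 of the loci with matched regions, the POS and NEG responses to trametinib had opposite signs in every library. There all treated POS libraries lay above all POS controls, and all treated NEG libraries below all NEG controls. The difference was not tested, because the segment was chosen by it at 472 kb. After 24 hours, the region chr20:55622122-55623123 at 472 kb differed by -2.69 on the log2 scale, NEG minus POS. At day 14 the same locus (start 55622591) differed by -3.95, and the locus at 501 kb (start 55650862) by -3.85. At the other matched day 14 loci the signs were not opposite in this way. Both populations were lower at 213 kb and both were higher at 786 kb. At 203 kb the POS response was -0.50 in its own table and 0.02 in the joint fit, and the NEG response -1.42 and -1.43. The locus at 465 kb also had opposite signs at day 14, at 4.86 in POS and -1.56 in NEG, without overlap of the libraries. Its regions shared only 334 bases and were not matched, so no difference was computed there.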

How the results depend on the processing

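Of 1227 recomputed log2 values, 1100 kept their direction and, where tested, their side of the threshold, or, for the untested drug responses, moved by less than 1 SE. Of 160 recomputed counts, medians and totals, 146 stayed within 1.5 times or, for medians of responses, within the median SE. With DESeq2, JUNB sites called higher and lower in POS numbered 5 and 27 against 10 and 41. Without a library in turn, the ranges were 4 to 9 higher and 30 to 41 lower for JUNB, 0 to 4 higher and 0 to 1 lower for POSR, and 1.87 to 2.30 for the median log2 response of POS at day 14. POSR1 alone gave 1 higher and 5 lower, and POSR2 alone 9 higher. An overlap of 80% left 3 of 5 loci at day 14, without 472 kb, and 2 of 3 after acute treatment, with the median acute response difference at -1.52 against -0.34 over the 3. Total counts moved the median day 14 response difference from -1.45 to -1.13.

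Outside the fits of POSR1 or POSR2 alone, signs changed mostly at values near 0. In POSR2 against POSR1 the 786 kb value was -0.0061 with DESeq2 size factors and -0.011 with DESeq2. Against POS, POSR1 alone gave -0.030 at the window start, -0.39 at 114 kb and -0.095 at 233 kb. It gave -1.08 at 300 kb and -0.16 at 472 kb. The pooled POSR values at these loci were, in that order, 1.63, 0.54, 0.46, 0.21 and 0.77. POSR2 alone gave 0.046 at 213 kb, 0.12 at 748 kb and 0.29 at 751 kb. The pooled values there were -0.11, -0.45 and -0.37. Leave-one-out ranges crossed 0 for untreated H3K27ac at 205 kb (-0.20 to 0.17), JUNB at 410 kb (-0.31 to 0.29), POSR against POS at 213 kb (-0.20 to 0.033), 300 kb (-0.23 to 0.51) and 786 kb (-0.095 to 0.047), POSR2 against POSR1 at 205 kb (-0.061 to 0.68) and 786 kb (-0.18 to 0.22), acute POS at 31 kb (-0.12 to 0.037) and 424 kb (-0.34 to 0.48) and acute NEG at 786 kb (-0.085 to 0.14). The cause was not tested.

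Replicate numbers were not taken to pair the samples. Same-number correlations of deviations ran from -0.209 to 0.0897 in the comparisons other than response differences, except in acute POS (0.13, 0.38 and -0.0094). These values do not settle whether the numbers pair samples, and a replicate block was only an alternative. With the block, 0 regions were higher in POSR against 3, the POSR value at 786 kb was 0.049 and the JUNB value at 410 kb -0.011. Whole-table POSR calls went from 9328 higher and 9868 lower to 2901 and 3877.

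Few libraries per group limit every test, and loci at 1 to 3 CPM rest on few reads.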
